A study of Mus musculus with 3 samples.

Results

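The genes described here encode the respiratory chain of mitochondria, the carrier cytochrome c and the ATP synthase. They were every gene of the array's gene table whose symbol begins with Nduf, Uqcr, Atp5, Cox4i, Cox5, Cox6, Cox7 or Cox8, together with Sdha to Sdhd, Cyc1 and Cycs, leaving out pseudogene symbols. This gave 97 genes, of which 89 had a probe set naming that gene alone, out of 22180 genes measured in this way. The other 8 genes (Cox6c, Ndufb2, Ndufb4, Ndufb4b, Ndufb4c, Ndufs6, Ndufs6b and Uqcr10) were covered by probe sets that name several genes. Of the 89 members, 32 belong to complex I, 8 are complex I assembly factors, 4 belong to complex II, 8 to complex III and 19 to complex IV. Cytochrome c is 1 gene and the ATP synthase has 17.

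The chain passes electrons from NADH, at complex I, or from succinate, at complex II, through complex III and cytochrome c to oxygen at complex IV. The protons pumped on the way drive the ATP synthase. Most subunits are encoded in the nucleus, whereas a few at the core of complexes I, III and IV and of the ATP synthase are encoded in mitochondrial DNA, so that each of these complexes draws on both genomes.

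Transcripts were measured on 1 array for each of 3 populations sorted from the peritoneal cavity of naive female BALB/c mice aged 10 to 11 weeks. The peritoneal cells came from 5 mice, pooled before sorting, and 100 cells per population went into 1 amplification. Mast cell progenitors had high c-kit, FcεRI, T1/ST2, low side scatter and high integrin β7. They and the mature mast cells were lineage negative or low and intermediate for CD16/32. Mature mast cells shared c-kit, FcεRI and T1/ST2, but their side scatter was high and their integrin β7 negative to intermediate. Lineage-negative type 2 innate lymphoid cells (ILC2s) had CD127, CD25 and T1/ST2, little or no c-kit, and no FcεRI or CD16/32. Neither mast cell population had CD127 or CD25.

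Values are log2 levels made with RMA, so a difference of 1 is 2-fold. With 1 array per population no value has an error, no difference could be tested, and fewer cells with a transcript cannot be told apart from less transcript per cell. The word called is used of a gene whose log2 levels were 2 or more apart, which is 4-fold, provided the brighter one exceeded the median of all probe sets naming 1 gene on its array. That median, the floor, was 6.32 (progenitors), 6.30 (mature mast cells) and 6.30 (ILC2s). Where the dimmer level lay below the floor, the fold over that median is given as "at least". Each array enters 2 of the 3 comparisons, so the comparisons are not independent of each other.

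The markers followed the labels in part. Of 9 mast cell markers, 3 were called higher in progenitors than in ILC2s and 7 in mature mast cells than in ILC2s. Of 8 ILC2 markers, 3 were called lower in progenitors and the same number in mature mast cells. Cpa3, a protease gene of mast cell granules, was at 12.30 (progenitors), 12.83 (mature mast cells) and 5.28 (ILC2s). Il7r, which encodes CD127, was at 5.89 (progenitors), 5.76 (mature mast cells) and 8.72 (ILC2s). The transcript of Kit was at 6.88 (progenitors), 10.29 (mature mast cells) and 6.63 (ILC2s), although progenitors were sorted for its protein. Fcer1a was likewise at 5.37 (progenitors), 8.87 (mature mast cells) and 5.05 (ILC2s). Itgb7, whose protein was high in the progenitor gate, was at 7.60 (progenitors), 7.82 (mature mast cells) and 7.82 (ILC2s). The ILC2 markers Gata3 and Rora spanned 0.06 and 0, and Il13 was at 7.65 (progenitors), 7.41 (mature mast cells) and 7.41 (ILC2s). None of 22 macrophage, B cell, T cell or granulocyte markers was called in any comparison, and the list medians lay between 6.10 and 6.93 on every array. The progenitor array was low for part of the brightly measured genes of any function. Among 489 genes that exceeded a level of 8 in mature mast cells and ILC2s and matched there to within 2-fold, 8.38% fell short of both by 4-fold or more in progenitors. Asked in turn of the other arrays, this was 0% of 371 genes (mature mast cells) and 0.746% of 402 genes (ILC2s). The 489 genes held 18 members, of which Cycs and Atp5mpl fell short in this way and 16 did not. The part of this property of the array in the results below was not tested.

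Of the 89 members, 12 were called in at least 1 comparison (13.5%, against 1.72% of all genes). They were 6 genes of complex I, 3 of the ATP synthase, 2 of complex IV and cytochrome c. Calls were commoner among bright genes. Taking a mean of at least 8 over the arrays as bright, 9 of 21 bright members were called (42.9%, against 21.9% of 693 bright genes), and 3 of the 68 dimmer members (4.41%, against 1.07%). That mean takes in the arrays compared, so a gene can count as bright through the arrays where it is high. The shares among bright genes are therefore not independent of the differences. Another 7 members differed by 2-fold to 4-fold, and 48 stayed under 2-fold. The remaining 22 had exactly the same deposited value on all arrays (24.7%, against 47.9% of all genes). Some of these values recur in other genes, such as 6.39223 for Sdhc and for Sucla2, a gene of the citric acid cycle. An exact tie is therefore not read here as equal transcript.

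**Figure D1:**
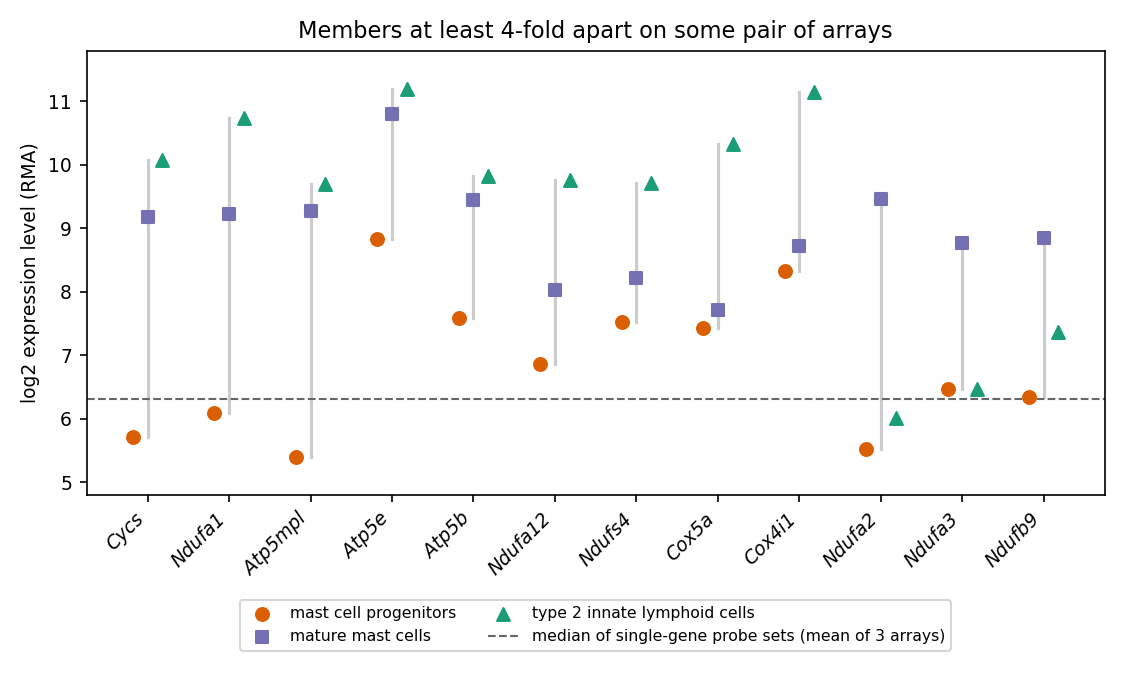
Log2 expression level (vertical axis) of the 12 members called in at least 1 comparison, with 1 symbol per array and a grey line from the lowest to the highest level. Progenitors (orange circles) are lowest in every gene shown, tied with ILC2s (green triangles) in Ndufa3; ILC2s are highest in 9 genes and mature mast cells (purple squares) in Ndufa2, Ndufa3 and Ndufb9. The dashed line is the mean of the array medians.

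Progenitors held the lowest level in most members that varied. In 19 members the arrays spanned at least 2-fold with the brightest level above the floor. Progenitors were alone in having the lowest level in 16 of these (84.2%, against 41.9% of the 914 such genes of all functions). Among bright genes, progenitors were alone lowest in 9 of 10 members (90%) and 58% of 288 genes. Progenitors were highest in 1 of the 19 members (5.26%, against 17.5% of the 914 genes). ILC2s were highest in 11 (57.9%, against 43.4%) and mature mast cells in 7 (36.8%, against 39.1%).

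Promoters were searched because several members were lowest together on the progenitor array. RefSeq promoters of GRCm38.p6, from 250 bases before to 50 after the start, matched 73 of the 89 members in 78 windows, and 8 of the 12 called members. The motifs were chosen with earlier results known. The core GCATGCGC bound by NRF1, a regulator of respiratory genes, stood on either strand in 16.7% of member windows and 2.71% of all 32851 windows. The ETS site CCGGAAG, bound by GABPA, stood in 24.4% and 8.86%, and the YY1 site AAGATGGC in 12.8% and 2.75%. The CREB site TGACGTCA stood in 5.13% and 1.79%, and the CCAAT box of NF-Y in 41.0% and 37.4%. The median GC content was 58.5% in member windows and 52.7% in all, a difference for which the shares were not adjusted. Among the 8 called members with a window, 1 held the NRF1 core (Cycs), 1 the ETS site (Atp5e), 2 the YY1 site (Ndufa3 and Ndufs4, both after the start) and 3 the CCAAT box (Atp5b, Atp5e and Cycs). A match of letters is not a site in use.

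The 250 bases before the start are shown for 3 members lowest in progenitors and, for contrast, for Atp5l, whose levels lay within 2-fold. Each reads 5′ to 3′ on the gene's strand, which is the minus strand in all 4, and capitals mark the motifs named above on either strand.
Cycs (chr6:50566570-50566819): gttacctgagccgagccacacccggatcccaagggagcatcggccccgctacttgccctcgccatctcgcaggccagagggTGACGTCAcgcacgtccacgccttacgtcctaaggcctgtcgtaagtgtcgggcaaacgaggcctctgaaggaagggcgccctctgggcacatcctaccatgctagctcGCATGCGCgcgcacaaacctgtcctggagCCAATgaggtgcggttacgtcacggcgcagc
Atp5e (chr2:174464102-174464351): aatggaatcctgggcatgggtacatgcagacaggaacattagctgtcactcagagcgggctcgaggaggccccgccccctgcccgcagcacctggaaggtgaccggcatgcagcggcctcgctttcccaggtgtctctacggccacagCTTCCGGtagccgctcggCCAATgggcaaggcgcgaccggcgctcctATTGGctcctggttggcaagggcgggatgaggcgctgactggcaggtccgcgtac
Ndufa1 (chrX:37191239-37191488): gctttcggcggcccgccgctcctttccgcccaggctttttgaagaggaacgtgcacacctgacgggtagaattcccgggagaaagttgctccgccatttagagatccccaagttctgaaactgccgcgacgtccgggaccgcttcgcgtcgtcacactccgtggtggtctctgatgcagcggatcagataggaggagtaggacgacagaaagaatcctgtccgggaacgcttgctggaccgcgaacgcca
Atp5l (chr9:44920743-44920992): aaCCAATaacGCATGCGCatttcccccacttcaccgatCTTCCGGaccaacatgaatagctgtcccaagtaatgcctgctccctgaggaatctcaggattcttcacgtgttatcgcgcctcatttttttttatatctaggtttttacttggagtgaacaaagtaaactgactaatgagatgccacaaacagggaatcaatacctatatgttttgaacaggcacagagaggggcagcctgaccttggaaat
In Cycs the CREB site begins 169 bases, the NRF1 core 60 bases and the CCAAT box 31 bases before the start. In Atp5e the ETS site, on the other strand, begins 102 bases before the start, and CCAAT boxes follow at 84 bases and, on the other strand, at 55 bases. The Ndufa1 window holds none of these motifs. Ndufa1 had the widest span over the arrays of the 89 members. Atp5l holds an NRF1 core at 240 bases and an ETS site at 212 bases before the start, with a CCAAT box at 248 bases, and a second ETS site after the start. None of these matches overlap.

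The first comparison set progenitors against mature mast cells, an early and a late stage of 1 lineage. In progenitors 6 members were called lower and 0 higher (6.74% lower, against 0.834% of all genes, and 0% higher, against 0.113%). The 6 were Ndufa1, Ndufa2, Ndufa3 and Ndufb9 of complex I, Cycs, and Atp5mpl of the ATP synthase. Of the bright members, 3 of 21 were lower (14.3%, against 8.23% of bright genes). Either way, 0.947% of all genes were called. As a measure of calls among genes of other tissues, 1.82% of 1374 olfactory and vomeronasal receptor genes were called in this comparison. The median difference was 0 over the members and 0 over all genes, with 30 members exactly tied, 15 above 0 and 44 below 0. Of all genes, 12922 were tied, 6466 above 0 and 2792 below 0. The mean difference was -0.39 over members and -0.005 over all genes. It was -0.75 over bright members and -0.34 over bright genes. Just outside the threshold were Atp5e (-1.96) and Atp5b (-1.86), and just inside it Ndufa3 (-2.31) and Ndufb9 (-2.51).

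Against ILC2s, 9 members were called lower in progenitors and 0 higher (10.1% lower, against 0.888% of all genes, and 0% higher, against 0.207%). The 9 were Ndufa1, Ndufa12 and Ndufs4 of complex I, Cox4i1 and Cox5a of complex IV, Cycs, and Atp5b, Atp5e and Atp5mpl of the ATP synthase. All 9 were bright members, 42.9% of the 21, against 15.7% of bright genes. Some were bright only through the other arrays, such as Cycs (5.71 in progenitors), Atp5mpl (5.40), Ndufa1 (6.09) and Ndufa12 (6.86). Either way, 1.1% of all genes and 0.873% of the receptor genes were called. The median difference was 0 over members and over all genes, and the mean was -0.43 over members and -0.01 over all genes. Among bright ones the mean was -1.41 over members and -0.47 over genes. Ndufs4 (-2.18) and Atp5b (-2.24) lay just inside the threshold, and the nearest members outside it were Ndufa6 (1.37) and Ndufa13 (-1.26).

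Between mature mast cells and ILC2s, 4 members were called (4.49%, against 0.974% of all genes and 1.6% of the receptor genes). Ndufa2 and Ndufa3 were higher in mature mast cells (2.25%, against 0.573% of all genes), and Cox4i1 and Cox5a were lower (2.25%, against 0.401%). Of the bright members, 9.52% were lower, against 4.04% of bright genes. The median difference of members was 0 and the mean -0.04, against a mean of -0.005 over all genes. Among bright ones the mean was -0.66 over members and -0.13 over genes. Ndufa6, an accessory subunit of complex I, lay just outside at 1.93. Within complex I the differences went both ways, with Ndufa12 3.33-fold lower and Ndufb9 2.82-fold higher in mature mast cells. A second probe set of Ndufa12, close to the floor, gave a log2 difference of only -0.05. A threshold of 2-fold was chosen after seeing the data. It called 14, 14 and 9 of the 89 members in the 3 comparisons, against 2.44%, 2.65% and 2.6% of all genes. The population named first in each comparison was higher in 1, 1 and 4 of these and lower in 13, 13 and 5.

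**Figure D2:**
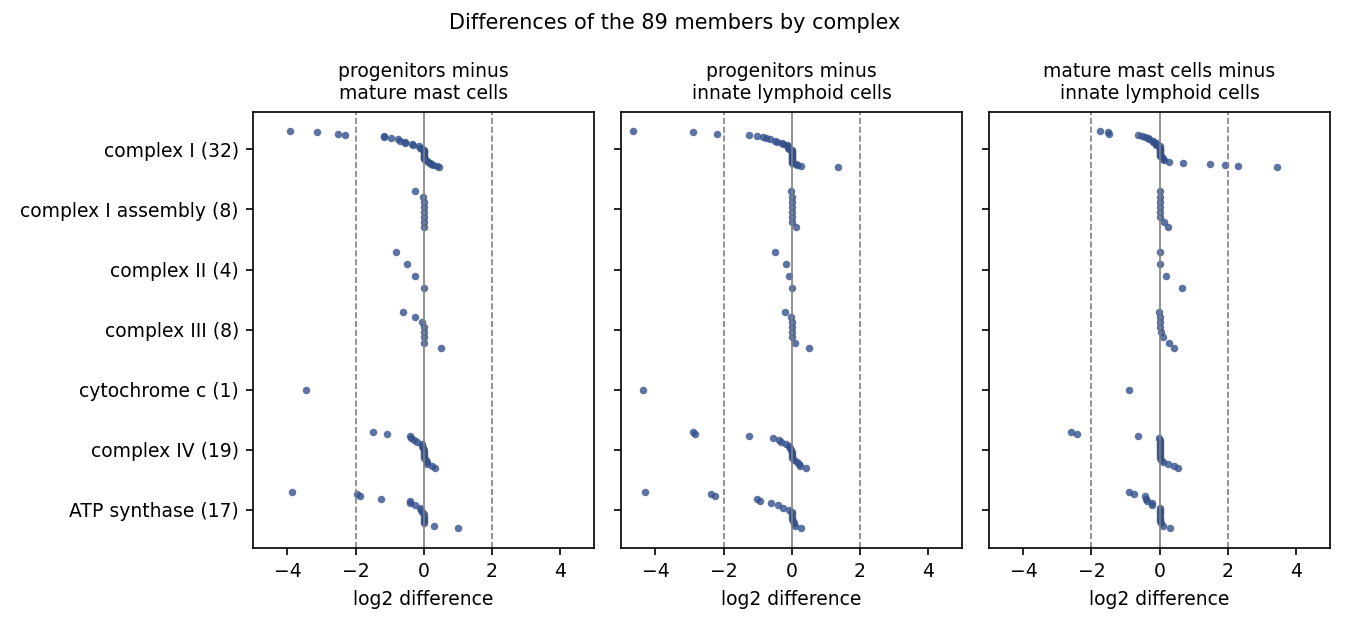
Log2 differences between pairs of arrays (horizontal axis) for each of the 89 members, 1 point per gene, in rows by complex with the number of genes in brackets. Dashed lines mark 4-fold and the solid line no difference; the points past 4-fold on the left-hand and middle panels all lie below 0, and those of complexes II and III and of the assembly factors stay within 2-fold.

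Complex I, the entry point for NADH, is the largest group and had 6 called members of 32. The ATP synthase had 3 of 17, and 1.72% of all genes were called in some comparison. Ndufa1, a small subunit of the membrane arm whose gene lies on chromosome X, was at 6.09 (progenitors), 9.23 (mature mast cells) and 10.75 (ILC2s). Progenitors were lower by at least 7.56-fold than mature mast cells and by at least 21.6-fold than ILC2s. The level in mature mast cells was in turn 2.85-fold lower than in ILC2s. Its promoter held none of the motifs searched.

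Accessory subunits of the matrix arm, near the site where NADH is oxidised, fell into different orders. Ndufs4, whose loss impairs complex I in mice, was at 7.52 (progenitors), 8.22 (mature mast cells) and 9.71 (ILC2s). Ndufa12 was at 6.86 (progenitors), 8.03 (mature mast cells) and 9.76 (ILC2s), which made it 7.49-fold lower in progenitors than in ILC2s. Its second single-gene probe set was at 5.99 (progenitors), 6.32 (mature mast cells) and 6.36 (ILC2s) and did not show this. That probe set lay below the floor in progenitors and close to it on the other arrays. Ndufa2 belongs to the same arm, but was at 5.53 (progenitors), 9.47 (mature mast cells) and 6.02 (ILC2s). Here mature mast cells stood at least 8.90-fold above progenitors and at least 8.97-fold above ILC2s, and the levels in progenitors and ILC2s lay below the floor.

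Ndufa3, of the membrane arm, was likewise highest in mature mast cells, at 6.46 (progenitors), 8.77 (mature mast cells) and 6.46 (ILC2s). Progenitors were 4.95-fold below mature mast cells. Ndufb9, of the distal membrane arm, was at 6.34 (progenitors), 8.85 (mature mast cells) and 7.36 (ILC2s), which placed progenitors 5.71-fold below mature mast cells, with ILC2s between them. Ndufa6 differed in having its lowest level in ILC2s, at 6.90 (progenitors), 7.46 (mature mast cells) and 5.53 (ILC2s). Ndufa13, also known as GRIM-19, was at 6.89 (progenitors), 8.06 (mature mast cells) and 8.15 (ILC2s).

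The catalytic core of complex I, which carries the flavin and the iron-sulphur clusters, stayed under 2-fold. Ndufv1, the flavin-binding subunit, was at 7.48 on all arrays, and Ndufs3 at 6.33 on all, both exact ties. Ndufv2 was at 6.86 (progenitors), 6.92 (mature mast cells) and 6.86 (ILC2s). Ndufs1 was at 6.01 (progenitors), 6.12 (mature mast cells) and 6.01 (ILC2s), and Ndufs7 at 6.92 (progenitors), 6.84 (mature mast cells) and 7.36 (ILC2s). Ndufs8 had the widest span of these core genes, at 7.13 (progenitors), 7.68 (mature mast cells) and 6.98 (ILC2s). Ndufs1 lay below the floor on every array. The bright accessory subunits Ndufc2 and Ndufa8 also stayed under 2-fold. Ndufc2 was at 8.83 (progenitors), 9.15 (mature mast cells) and 9.48 (ILC2s), and Ndufa8 at 8.46 (progenitors), 8.02 (mature mast cells) and 8.46 (ILC2s).

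The 8 assembly factors of complex I, which help to build it but are not part of it, differed by at most 0.24 over the arrays. Ndufaf3 was at 6.56 (progenitors), 6.80 (mature mast cells) and 6.56 (ILC2s), and 5 others were exactly equal on all arrays. Only 3 of the 8 were above the floor on any array.

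Complex II, which also serves the citric acid cycle, had no called member. Sdha, the flavoprotein subunit, was at 6.09 (progenitors), 6.89 (mature mast cells) and 6.24 (ILC2s), the widest span of the 4 genes at 0.80. Sdhb, the iron-sulphur subunit, was at 7.15 (progenitors), 7.63 (mature mast cells) and 7.63 (ILC2s). The membrane anchor genes Sdhd and Sdhc were at 7.17 (progenitors), 7.43 (mature mast cells) and 7.24 (ILC2s), and at 6.39 on all arrays. The lowest level of Sdha, Sdhb and Sdhd was in progenitors, but none of these differences reached 2-fold.

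Complex III, which hands electrons to cytochrome c, also stayed within 2-fold throughout. Uqcrb, its only bright member, was at 10.55 (progenitors), 10.04 (mature mast cells) and 10.04 (ILC2s). Uqcrc2, core protein 2, was at 6.74 (progenitors), 7.34 (mature mast cells) and 6.93 (ILC2s), and Uqcr11 at 7.52 (progenitors), 7.79 (mature mast cells) and 7.52 (ILC2s). The Rieske iron-sulphur gene Uqcrfs1 was at 6.12 on all arrays, and Cyc1, which encodes cytochrome c1, was at 6.69 (progenitors), 6.69 (mature mast cells) and 6.72 (ILC2s).

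Cycs, which encodes the soluble carrier between complexes III and IV and a trigger of apoptosis when released, was at 5.71 (progenitors), 9.17 (mature mast cells) and 10.08 (ILC2s). Progenitors were lower by at least 7.26-fold than mature mast cells and by at least 13.6-fold than ILC2s. Its promoter held the NRF1 core, the CREB site and the CCAAT box. The result rests on which probe set is read, since Cycs has 5 that name it alone. A second one followed the same order at 5.15 (progenitors), 7.22 (mature mast cells) and 8.24 (ILC2s). A further one was at 6.15 on all arrays, and the last pair, which have identical values, went the other way at 6.22 (progenitors), 4.53 (mature mast cells) and 4.86 (ILC2s). All values of that pair lie below the floor, as do those of the probe set at 6.15.

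Atp5e also has 2 single-gene probe sets, and they gave the same order. The one used was at 8.84 (progenitors), 10.80 (mature mast cells) and 11.20 (ILC2s), and the other at 7.27 (progenitors), 10.67 (mature mast cells) and 11.09 (ILC2s). By the second, progenitors were lower than mature mast cells by a difference of -3.41, which is past the threshold that the first one missed. Cox7b, a small subunit of complex IV, had probe sets that differ more. The probe set used was at 6.57 (progenitors), 6.46 (mature mast cells) and 6.36 (ILC2s), whereas a second one was at 2.70 (progenitors), 2.40 (mature mast cells) and 9.99 (ILC2s).

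**Figure D3:**
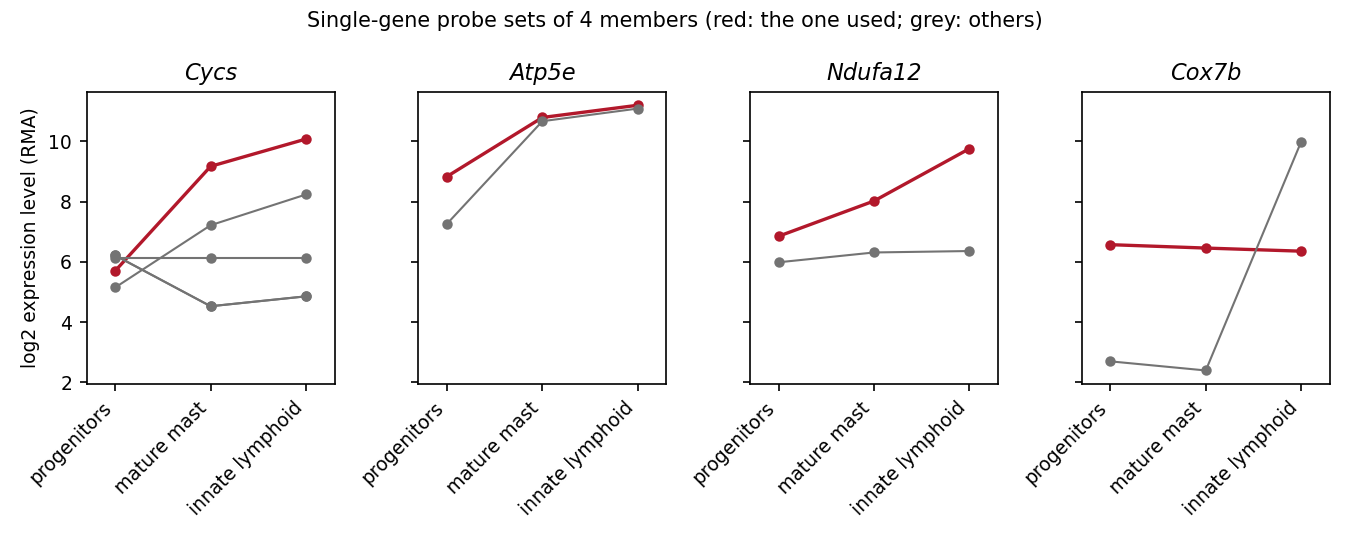
Log2 expression level (vertical axis) on the 3 arrays (horizontal axis) for every single-gene probe set of Cycs, Atp5e, Ndufa12 and Cox7b, with the probe set used in red and the others in grey. Both lines of Atp5e climb together, those of Cycs and Ndufa12 part, and the grey line of Cox7b reaches 9.99 in ILC2s. A pair of grey Cycs lines coincides.

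Complex IV, which reduces oxygen, had 2 called members, both highest in ILC2s. Cox4i1 and Cox5a are nuclear-encoded partners that join the mitochondrially encoded COX1 early in assembly. Cox4i1 was at 8.32 (progenitors), 8.73 (mature mast cells) and 11.15 (ILC2s). Cox5a was at 7.44 (progenitors), 7.71 (mature mast cells) and 10.33 (ILC2s). Against ILC2s, Cox4i1 was lower by 7.08-fold in progenitors and by 5.34-fold in mature mast cells. Cox5a was lower by 7.42-fold in progenitors and by 6.12-fold in mature mast cells. Progenitors minus mature mast cells gave a log2 difference of -0.41 for Cox4i1 and -0.28 for Cox5a.

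The other bright members of complex IV stayed under 2-fold. Cox6a1 was at 9.79 (progenitors), 9.47 (mature mast cells) and 10.11 (ILC2s), and Cox5b at 8.54 (progenitors), 8.44 (mature mast cells) and 8.39 (ILC2s). Cox8a was at 8.28 (progenitors), 8.65 (mature mast cells) and 8.65 (ILC2s), and Ndufa4, once assigned to complex I and now placed in complex IV, at 9.90 (progenitors), 9.90 (mature mast cells) and 9.47 (ILC2s). Of the dimmer members, Cox6b1 was at 6.52 (progenitors), 7.998 (mature mast cells) and 7.76 (ILC2s), and Cox7a2 at 6.55 (progenitors), 7.63 (mature mast cells) and 7.09 (ILC2s), both lowest in progenitors.

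Several complex IV subunits have isoforms restricted to certain tissues, such as muscle, lung or testis, beside a widely expressed form. The 8 genes grouped here as isoforms (Cox4i2, Cox6a2, Cox6b2, Cox7a1, Cox7b2, Cox8b, Cox8c and Ndufa4l2) differed by at most 0.24 over the arrays, and 4 of them were exactly equal. Ndufa4l2 was included as a relative of Ndufa4, without implying that it is restricted to a tissue. Cox4i2, the lung isoform of Cox4i1, was at 6.97 (progenitors), 7.03 (mature mast cells) and 7.05 (ILC2s), without the step seen for Cox4i1. Cox6a2, the muscle isoform of Cox6a1, was at 7.26 (progenitors), 7.30 (mature mast cells) and 7.30 (ILC2s), and Cox8c at 6.16 (progenitors), 5.91 (mature mast cells) and 5.91 (ILC2s). Cox7a1 was at 6.37, Cox6b2 at 7.16, Cox7b2 at 3.26 and Ndufa4l2 at 6.17 on all arrays, and Cox8b was at 6.02 (progenitors), 5.95 (mature mast cells) and 5.95 (ILC2s).

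In the ATP synthase, called members came from the catalytic head, the rotating stalk and the membrane part. Atp5b, the catalytic β subunit, was at 7.58 (progenitors), 9.44 (mature mast cells) and 9.83 (ILC2s), so that progenitors were 3.63-fold below mature mast cells and 4.73-fold below ILC2s. Atp5e, the ε subunit of the central stalk, was 3.89-fold below mature mast cells and 5.15-fold below ILC2s in progenitors. Atp5mpl, a small proteolipid of the membrane part, was at 5.40 (progenitors), 9.27 (mature mast cells) and 9.69 (ILC2s), so that progenitors were at least 7.75-fold below mature mast cells and at least 10.4-fold below ILC2s. All 3 were lowest in progenitors, with the other populations within 1.34-fold of each other. Atp5pb, of the peripheral stalk, had the same lowest array, at 7.23 (progenitors), 8.47 (mature mast cells) and 8.17 (ILC2s).

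Several partners of these subunits stayed under 2-fold. Atp5a1, which forms the catalytic ring with Atp5b, was at 7.54 on all arrays, and Atp5c1, the central γ stalk, at 6.86 on all. Exact ties like these were found in 47.9% of all genes and do not show that a subunit was steady. Atp5d, the δ subunit next to Atp5e, was at 8.37 (progenitors), 8.78 (mature mast cells) and 8.78 (ILC2s). Atp5l, a membrane subunit at dimer contacts, was at 11.98 (progenitors), 12.03 (mature mast cells) and 11.92 (ILC2s), and Atp5md at 10.58 (progenitors), 10.98 (mature mast cells) and 11.19 (ILC2s). Atp5k, another membrane subunit, was the 1 member of the 19 that was highest in progenitors, at 10.20 (progenitors), 9.18 (mature mast cells) and 9.92 (ILC2s). The c ring is encoded by 3 genes, of which Atp5g2 was at 9.24 (progenitors), 8.92 (mature mast cells) and 9.14 (ILC2s), Atp5g3 at 6.74 (progenitors), 6.85 (mature mast cells) and 7.75 (ILC2s), and Atp5g1 at 6.42 (progenitors), 6.42 (mature mast cells) and 6.39 (ILC2s).

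By role, 2 of 13 catalytic or electron-carrying members were called, Cycs and Atp5b, which were also the 2 bright ones among them. Of the 60 other subunits 10 were called, 7 of them among the 19 bright ones. None of the assembly factors and of the genes grouped as isoforms was called, and none of these was bright. Over all genes 1.72% were called in some comparison, and 21.9% of bright genes. The roles thus differ in how many members were bright, and no contrast between roles was tested.

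The 10 subunit genes of mitochondrial DNA read here were at nearly the same level in all populations. Neither COX2 nor the ATP synthase genes of mitochondrial DNA were among them. The probe set of ND4L is numbered apart from the others, and whether it reads the mitochondrial gene was not tested. Their levels lay between 11.56 and 12.63, and none spanned more than 0.23. COX1, the catalytic core of complex IV that binds Cox4i1 and Cox5a in assembly, was at 12.24 (progenitors), 12.26 (mature mast cells) and 12.25 (ILC2s). ND3 had the widest span, at 12.06 (progenitors), 12.07 (mature mast cells) and 11.84 (ILC2s), ND2 was at 11.86 (progenitors), 11.72 (mature mast cells) and 11.77 (ILC2s), and ND4 at 12.63 (progenitors), 12.63 (mature mast cells) and 12.49 (ILC2s). Among 33 other genes averaging 11 or more, members left out, the median span was 0.84 and 9 spanned 2-fold or more. That comparison was chosen after the values were seen. The nuclear-encoded member Atp5l, left out of it with a mean of 11.98, spanned only 0.11. The highest level on every array was 13.67, and whether the signal of such bright genes is compressed was not tested.

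**Figure D4:**
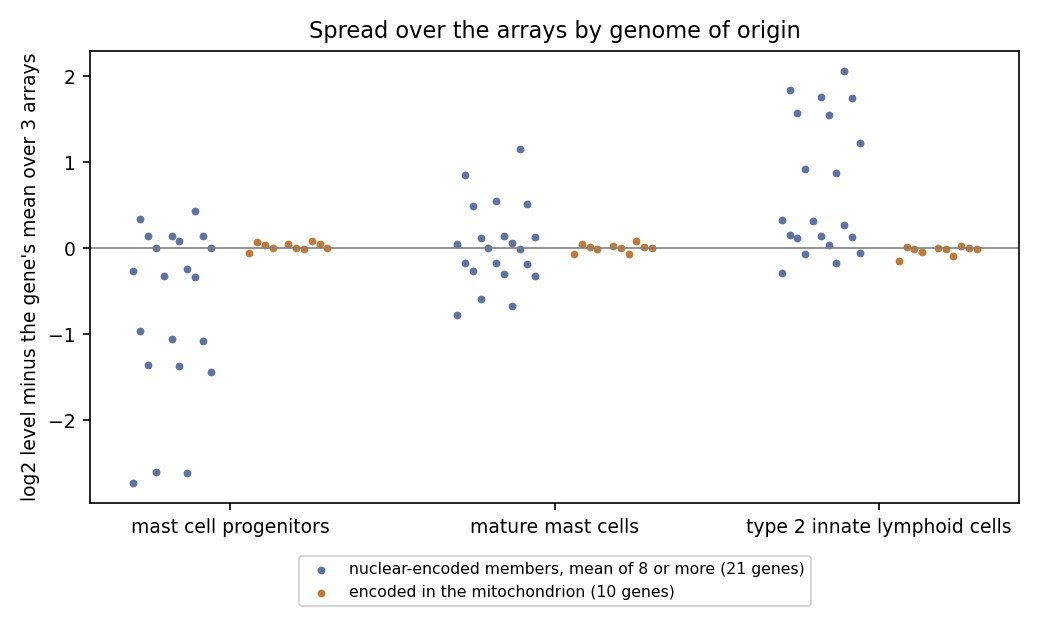
Log2 level minus the gene's own mean over the 3 arrays (vertical axis) in each population (horizontal axis), for the 21 nuclear-encoded members with a mean of 8 or more (blue) and the 10 mitochondrially encoded subunit genes (orange). The nuclear genes reach -2.72 in progenitors and 2.06 in ILC2s, whereas the mitochondrial genes stay between -0.15 and 0.08.

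Genes that work beside the chain were read from further lists. No gene was called in any comparison among 38 further assembly factors and regulators, 16 genes of the citric acid cycle and pyruvate oxidation, 20 of carriers and import, 16 nuclear regulators of mitochondrial genes or 15 of glycolysis. Most of them were dim, with 1, 0, 3, 1 and 1 bright genes in these lists. In some comparison 1.72% of all genes were called, and 1.07% of those with a mean under 8. The absence of calls in lists of this size lies near these shares. Among 21 mitochondrial ribosomal protein genes, 2 were called lower against ILC2s in progenitors (9.52%, against 0.888% of all genes) and likewise in mature mast cells (9.52%, against 0.401%). Mrpl52 was at 6.60 (progenitors), 6.83 (mature mast cells) and 9.64 (ILC2s), and Mrpl13 at 4.94 (progenitors), 4.90 (mature mast cells) and 7.46 (ILC2s). Etfb, a subunit of the flavoprotein that brings electrons from fatty acid oxidation to the chain, was at 6.38 (progenitors), 8.47 (mature mast cells) and 7.64 (ILC2s). Against mature mast cells it was called lower in progenitors, alone among 8 genes of uncoupling and side entry (12.5%, against 0.834% of all genes), and in no other comparison. Pdhb, of the pyruvate dehydrogenase complex, was at 6.47 (progenitors), 6.91 (mature mast cells) and 7.92 (ILC2s). The 3 widest-ranging genes of carriers and import had different orders. Hspe1, a mitochondrial chaperonin, was at 6.65 (progenitors), 6.005 (mature mast cells) and 7.46 (ILC2s). The import channel gene Timm23 was at 7.76 (progenitors), 7.83 (mature mast cells) and 9.09 (ILC2s), and the import chaperone gene Timm8b at 6.82 (progenitors), 7.95 (mature mast cells) and 6.82 (ILC2s).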

How the data were processed

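Transcripts of 3 sorted cell populations were measured on 1 array each. The authors deposited log2 levels for 41345 probe sets. The submitters' processing notes name RMA, a method that adjusts background, brings arrays to a common distribution and combines probes into sets, without its software or version. Values between 2.23 and 13.7 show the log2 scale. Probe-level signals were not used here.

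In the platform's annotation 23521 probe sets name 1 gene, 1814 several and 16010 none. Each gene was read from the brightest probe set, by mean, that names it alone. Differences were taken between arrays in Python 3.11.15 with pandas 2.3.3. The calling rule was run on simulated data with an assumed noise and shifts larger than the threshold. That run checks the code only and says nothing about the noise of these arrays. All 89 members matched the GRCm38.p6 RefSeq gene table by Entrez identifier, with the same symbol. The authors' genome build is not given in the sources used here. The precision is limited by the number of arrays, and no test was possible.

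The members, the gene lists and the rules were chosen with earlier results of these data known. Genes named were all called members, the widest-ranging, brightest and steadiest of each complex, the isoforms, all other probe sets of called members, the 3 widest-ranging genes of each list and the sort markers. Other core subunits and COX1, Cox7b probe sets, Atp5g genes, Gata3, Rora and Il13 were named after their values were seen. Not every gene of that set is described. Settings tried were other floors, scales, probe set choices and member sets, and, chosen after seeing the data, a 2-fold threshold and the probe set highest on any array.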

Additional observations from a re-analysis of the deposited data

How the results depend on the processing

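No paired analysis was possible because each population has 1 array. Counts of called members stayed within 1.5 times of those reported without a floor, with the floor raised to the 75th percentile, under 2 other scalings, 3 other choices of probe set, structural subunits alone, and probe sets naming several genes, with 6 for progenitors and mature mast cells under all of these, 7 to 10 for progenitors and ILC2s, and 4 or 5 for mature mast cells and ILC2s. At 2-fold, a threshold chosen after seeing the data, the counts were 14, 14 and 9 of 89 members. The shares of all genes were 2.44%, 2.65% and 2.60%. Centring the arrays on genes with a mean of 8 or more moved the median difference of members to 0.26, 0.36 and 0.11, the shift it gives to every gene, and there Atp5b (-1.88) and Ndufs4 (-1.82) lost their calls against ILC2s. Ndufs4 also lost it under quantile normalization (-1.97). With the dimmest probe set Cycs reversed, to 1.68 against mature mast cells and 1.36 against ILC2s, and Ndufa12 fell short at -0.37. With the mean of all probe sets Cycs was at -0.43 and -0.95 and Ndufa12 at -1.64. Under both choices Atp5e was called against mature mast cells in place of Cycs, so the count of 6 does not name the same genes, and Cox7b was called in both comparisons with ILC2s. Ndufa6 was called between mature mast cells and ILC2s after centring, and Cox6c where probe sets naming several genes were used. Signal near the array medians limits what can be seen for dim members.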

Other observations

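Some members lacking a single-gene probe set, or having further ones, carried signal that the counts leave out. A probe set naming Cox6c, a complex IV subunit, together with Gm6265 was at 8.12 (progenitors), 8.06 (mature mast cells) and 11.03 (ILC2s), highest in ILC2s as were Cox4i1 and Cox5a, whereas a second one with the same names was at 7.70 on all arrays. A probe set naming Ndufs6 and Ndufs6b, of the matrix arm of complex I, was at 7.87 (progenitors), 10.24 (mature mast cells) and 9.96 (ILC2s), and a second one was at 6.74 (progenitors), 7.13 (mature mast cells) and 7.07 (ILC2s). A probe set naming Uqcr10, a small subunit of complex III, together with Gm6293 was at 5.47 (progenitors), 7.45 (mature mast cells) and 5.81 (ILC2s), highest in mature mast cells as were Ndufa2 and Ndufa3. The probe set of Ndufb4 and its relatives Ndufb4b and Ndufb4c was at 8.04 on all arrays. Which of the genes named gave these signals was not tested, and these probe sets were chosen after their values were seen.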
